A study of Mus musculus with 2 samples.

Results

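The 10 loci described here are Slc35f1, Pla2g4a, Kcnh5, Fbxo38, Ankrd44, Ryr2, Slc9a9, Wdfy4, Mast4 and Syne3, each of which held at least 1 region of open chromatin that was lower after ablation of basal epidermal cells. Their peaks were taken as those that overlap the gene, or lie within 50 kb of it where it is the nearest protein-coding gene, on mouse build mm10. This gave 126 peaks of 84591 nuclear peaks in the table, of which 113 passed a filter on low signal that 76147 peaks passed in all. The loci were chosen by the ratio of ablation to control signal in these same libraries, so the values below describe them and none is a test.

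The assay was ATAC-seq, in which a transposase cuts and tags accessible DNA. It was run on mouse epidermal cells of the basal layer, gated as α6 integrin high, CD34- and Lrig1- and positive for a YFP, GFP or RFP reporter of K14 lineage tracing. One library came from epidermis labelled basal lineage ablation and the other from epidermis labelled wild type. Both libraries carry the K14 tracing reporters. The sources used here give neither the agent of ablation nor its promoter, the age of the animals or the time after ablation. With 1 library per group there is no spread between animals, no p-value is given, and 95% intervals cover counting error only. Fewer cells with an open site and less opening per cell cannot be told apart in such sorted bulk material.

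The ablation library held 12463908 reads in nuclear peaks and the control library 17056996, and a peak had a median of 62 reads in ablation and 76 in control. Mitochondrial DNA took 31.2% of reads in peaks in ablation and 7.31% in control. The Y-linked genes Ddx3y, Eif2s3y and Uty together had 132 reads in ablation and 64 in control, while all 10 loci are autosomal. The basal identity was in view in both libraries, with tested peaks at 8 of 8 basal markers, whose summed signal was 17413 normalized reads in ablation and 18628 in control. Single basal markers differed in both directions: Itga6, the α6 integrin of the gate, was at 0.830 of control (0.792 to 0.870) and Col17a1 at 0.785 (0.741 to 0.833), while Krt5 was at 1.16 (1.09 to 1.22). The part that these differences between the libraries play in the values below was not tested.

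The genes do not form a pathway. Several of them act on ions, membranes and lipids. Slc9a9 encodes an endosomal sodium/proton exchanger, Ryr2 the calcium release channel of heart muscle, Kcnh5 a voltage-gated potassium channel of the ether-a-go-go family, and Slc35f1 a member of the SLC35 solute carriers. Pla2g4a encodes the cytosolic phospholipase that frees arachidonic acid, the precursor of prostaglandins and leukotrienes, which keratinocytes make on injury. Others work in protein control and the cytoskeleton. Fbxo38 is the substrate receptor of a ubiquitin ligase, Ankrd44 a regulatory subunit of protein phosphatase 6, Mast4 a microtubule-associated kinase, Wdfy4 a BEACH protein needed for cross-presentation by dendritic cells, and Syne3 (nesprin-3) ties the nuclear envelope to intermediate filaments through plectin. In chromatin such as this, distal peaks inside introns or beyond a gene often act as enhancers, while a peak at the gene start marks an open promoter; a lower peak says nothing by itself of the transcript.

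Among the loci with a peak over the gene start, 3 stood furthest from no change there, and their promoters are shown because the data differ at these starts. Each run is the 250 bases before the annotated start, 5′ to 3′ on the strand of the gene, from RefSeq on GRCm38.p6, the assembly behind mm10. Capitals mark matches to the motifs CCAAT and GGGCGG on either strand. The windows are chr10:52690251-52690500 (+ strand), chr13:12106946-12107195 (− strand) and chr1:149961291-149961540 (− strand).
Slc35f1: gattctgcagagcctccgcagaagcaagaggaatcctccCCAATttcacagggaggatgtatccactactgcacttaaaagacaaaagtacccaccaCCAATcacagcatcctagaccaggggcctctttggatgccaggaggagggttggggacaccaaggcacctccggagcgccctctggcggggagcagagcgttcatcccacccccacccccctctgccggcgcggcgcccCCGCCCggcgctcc
Ryr2: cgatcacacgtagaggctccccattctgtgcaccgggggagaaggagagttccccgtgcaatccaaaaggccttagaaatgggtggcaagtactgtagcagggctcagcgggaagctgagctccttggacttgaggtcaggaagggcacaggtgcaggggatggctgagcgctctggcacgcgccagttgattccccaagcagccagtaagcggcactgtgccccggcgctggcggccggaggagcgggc
Pla2g4a: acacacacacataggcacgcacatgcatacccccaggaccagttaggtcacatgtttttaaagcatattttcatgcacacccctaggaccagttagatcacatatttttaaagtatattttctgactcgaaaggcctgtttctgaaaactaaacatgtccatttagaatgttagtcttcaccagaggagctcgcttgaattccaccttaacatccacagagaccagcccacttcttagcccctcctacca
The Slc35f1 promoter held 2 CCAAT matches and 1 GGGCGG match, motifs present in 33.8% and 32.7% of the 32851 promoter windows of this length. The Ryr2 and Pla2g4a windows held no match to either. Also searched on both strands, with no match in these 3 windows, were the AP-1 motif TGANTCA (in 6.75% of all windows), the cyclic AMP response motif TGACGTCA (in 1.55%), the ETS motif CCGGAA (in 12.03%) and the TEAD motif GGAATG (in 12.6%). Slc35f1 and Ryr2 are rich in G and C, at 62.8% and 63.2%, with 12 and 14 CpG, against a median of 52.4% and 6 CpG over all windows. Pla2g4a had 43.2% and 3 CpG. The peak over the start was 2.16-fold lower in ablation at Slc35f1, 1.46-fold lower at Pla2g4a and 2.23-fold higher at Ryr2.

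Over all 10 loci, 24 of the 113 tested peaks (21.2%) were at least 2-fold lower in ablation, where 1.88% of all tested peaks were, and 4 (3.54%) were at least 2-fold higher, where 4.48% of all were. The log2 ratio of ablation to control, with 1 normalized read added to each value, had a median of -0.24 over the members' peaks and -0.01 over all tested peaks, with a range of -2.52 to 1.97 among the members. Below 0 were 75 of the 113 (66.4%), where 51.3% of all tested peaks lay below 0. Because the loci were chosen for low peaks, the share of 21.2% is fixed in part by that choice. With the lowest peak of each locus set aside, 14 of 103 peaks (13.6%) were at least 2-fold lower, and the median was -0.15. This smaller share comes from the same chosen loci and the same 2 libraries, so it is not free of the choice. The lower peaks were unevenly spread: Slc35f1, Pla2g4a and Kcnh5 together held 15 of the 24, while 5 loci held 1 each. Without those 3 loci, 9 of 86 peaks (10.5%) were lower. These 9 include the lowest peak of each remaining locus, and the loci were chosen for low peaks. Of the remaining loci, only Ryr2 and Mast4 had another lower peak, with 2 each in all.

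The lowest peaks, 1 per locus, held 9 to 65 reads in ablation and 70 to 244 reads in control. They were between 2.92-fold and 6.31-fold lower in ablation, and the exact Poisson intervals of the 2 libraries lay apart at all 10. These peaks were picked by their low ratio in the same libraries, so the gap follows in part from that choice and is no test. Among the 76147 tested peaks, ranked from the lowest ratio, they stood between rank 12 (Slc35f1) and rank 251 (Syne3). In the signal range that these peaks cover, 1.63% of all tested peaks were at least 2-fold lower. Of the 10, 8 lay inside the gene body and 0 lay over a promoter window or within 1 kb of a gene end.

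**Figure D1:**
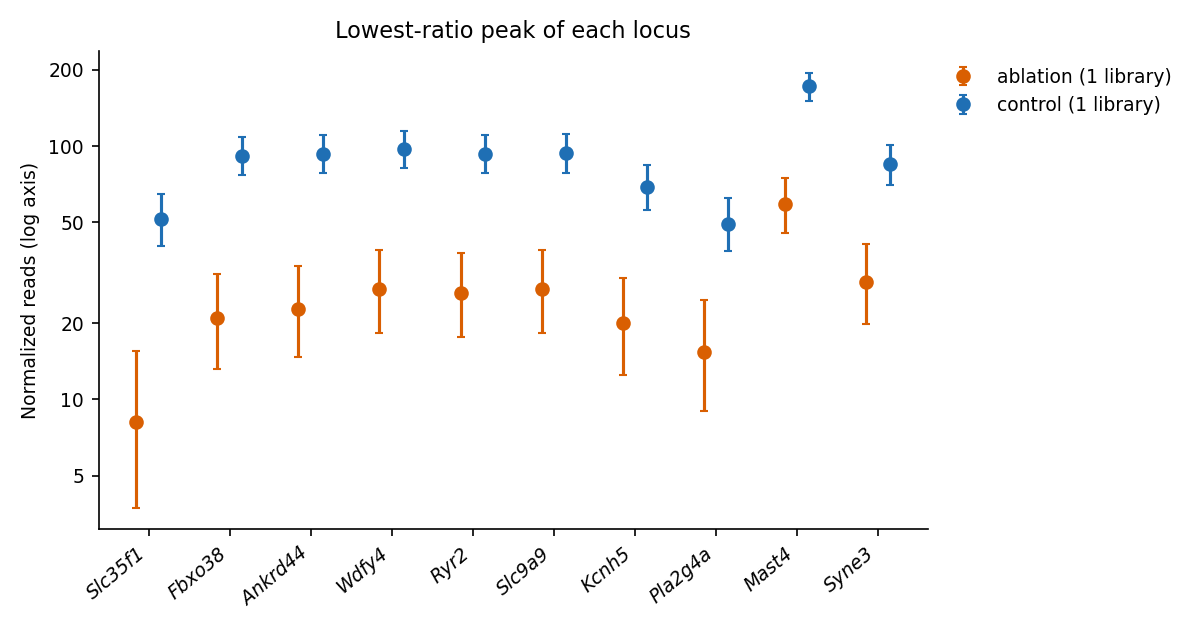
Normalized reads (log axis) of the lowest-ratio peak of each locus in the ablation library and in the control library, with exact 95% Poisson intervals for counting error. Ablation values lie between 8.16 and 59.0 and control values between 49.4 and 172. The intervals do not meet at any locus, for peaks picked by their low ratio in these libraries.

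The table lists its peaks in 3 blocks, each ordered by peak name. Peaks first listed in the first block had a median log2 ratio of 0.71, those of the second -0.44 and those of the third -0.03. At least 2-fold lower were 0.0349% of tested peaks in the first block, 16.1% in the second and 1.06% in the third, and the members had 0 of 5, 7 of 16 and 17 of 92. At least 2-fold higher were 31.2%, 0.264% and 2.44% in the same order, and the members had 1, 0 and 3. Of the 10 lowest peaks 9 stood in the third block and that of Slc35f1 in the second. The 7 lower member peaks of the second block, in Slc35f1, Kcnh5, Pla2g4a and Mast4, were all under 13.96 normalized reads in ablation. They passed the filter on mean signal only through control. What the blocks stand for is not stated.

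Slc35f1, on chromosome 10 from 52690501 to 53111622 and 421 kb long, was the most extended of these loci. All 16 of its peaks were tested, 14 had a log2 ratio below 0, and 8 were at least 2-fold lower, spread over 426 kb from the gene start to beyond the far end. The lowest, at 52801914 to 52802341 in the gene body, had 8.16 normalized reads in ablation and 51.5 in control (9 and 73 reads), 6.31-fold lower with an interval of 3.15 to 14.3. A peak at 52848028 to 52848296 had 12.7 normalized reads in ablation and 39.5 in control, and another at 52918123 to 52918958 had 33.6 in ablation and 99.5 in control. Both were about as far down, at -1.56 and -1.54 on the log2 scale.

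The peak over the Slc35f1 start, at 52690259 to 52691803, had 67.1 normalized reads in ablation and 145 in control (74 and 205 reads), a ratio of 0.464 (0.351 to 0.608). It was the only one of the members' 7 promoter peaks that was at least 2-fold lower, a size that 0.235% of the peaks over promoter windows reached in this direction. Toward the far end the peaks at 52881161 to 52881523, 52934576 to 52934917 and 52936553 to 52937292 had log2 ratios of -1.04, -1.09 and -1.23. The strongest of these had 57.1 normalized reads in ablation and 135 in control. Beyond the gene, 4296 bp past its end, a peak at 53115918 to 53116399 had 11.8 in ablation and 26.8 in control. The highest peak, at 52871690 to 52872191, had 30 reads in each library and a log2 ratio of 0.35.

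Summed over the locus, Slc35f1 had 509 reads in ablation and 1220 in control, a ratio of normalized signal of 0.536 (0.483 to 0.595). Without the lowest peak the ratio was 0.561 (0.503 to 0.623), a value from the same contrast by which the locus was chosen. By contrast, the 29 other tested peaks within 1 Mb had a median log2 ratio of -0.06, with 1 lower and 1 higher. Summed as the locus was, these 29 peaks stood at -0.19 (ratio 0.846 to 0.912). The neighbouring gene Nus1 was at -0.30 and Cep85l, on the far side, at 0.11.

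Kcnh5, on chromosome 12 from 74897217 to 75177332, had 3 peaks, and all 3 were at least 2-fold lower. The strongest, at 75085963 to 75086811, had 19.95 normalized reads in ablation and 69.2 in control (22 and 98 reads), 3.47-fold lower (2.17 to 5.78). The peak at 75100722 to 75101100 had 12 reads in ablation and 37 in control, a ratio of 0.417 (0.198 to 0.817). Outside the gene, 41233 bp away, a peak had 10 reads in ablation and 33 in control, a ratio of 0.389 (0.171 to 0.809). Both of these weaker peaks were under 13.96 normalized reads in ablation, so they passed the filter on the mean only through control. Both stood in the second block of the table, where 16.1% of tested peaks were lower. There was no peak over the annotated start, and the whole locus rests on 44 reads in ablation and 168 in control, a ratio of 0.337 (0.236 to 0.472). Its 75 neighbouring peaks had a median log2 ratio of -0.14 and summed to -0.18 (ratio 0.863 to 0.906). The neighbouring genes Dbpht2 and Rhoj stood at -0.87 and -0.26. Dbpht2 rests on 1 peak.

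Ryr2 spans 554 kb on chromosome 13, from 11553099 to 12106945, and is read from the high-coordinate end. Its 4 peaks sat at the ends only, with 1 peak touching the gene, over the start, and 3 beyond the 3′ end. A pair of neighbouring peaks past the 3′ end were both lower. At 11549152 to 11549759, 3340 bp beyond the gene, there were 26.3 normalized reads in ablation and 93.1 in control (29 and 132 reads), 3.54-fold lower (2.35 to 5.49). At 11540032 to 11540720, 12379 bp beyond it, there were 34.5 in ablation and 117 in control (38 and 166 reads), 3.40-fold lower. The third peak on that side, at 11536983 to 11537215, had 16 reads in ablation and 19 in control and a log2 ratio of 0.11.

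The Ryr2 start went the other way. The peak at 12106783 to 12107035 had 29.9 normalized reads in ablation and 13.4 in control (33 and 19 reads), 2.23-fold higher with an interval of 1.23 to 4.16. Of all peaks over promoter windows, 1.27% were at least 2-fold higher. The sum over the locus was 0.444 of control (0.356 to 0.550), but only the start peak overlaps the gene, so the locus value is a log2 ratio of -1.16 over its 4 peaks and 1.10 over the overlapping peak alone. The lower peaks are tied to Ryr2 by distance alone; the next gene on that side with a tested peak, Chrm3, is 1192 kb from Ryr2 and stood at -0.51 from 1 peak. Heart and skeletal muscle markers, the tissues in which Ryr2 and its relatives work, had tested peaks at 4 of 8 genes and summed to 1299 normalized reads in ablation and 1420 in control, with Myh6, Myh7, Actc1 and Myod1 holding none.

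Slc9a9, on chromosome 9 from 94669557 to 95230453, had a 2-fold lower peak before its start, and 3 higher peaks and 1 that was lower by less than 2-fold inside. A peak 25324 bp before the gene start, at 94643568 to 94644233, had 27.2 normalized reads in ablation and 93.9 in control (30 and 133 reads), 3.45-fold lower (2.31 to 5.31). The stronger peak at 94626505 to 94627239 on the same side had 248 in ablation and 393 in control, a log2 ratio of -0.66. The start itself, at 94668421 to 94670559, had 204 in ablation and 223 in control, with an interval of the ratio of 0.768 to 1.09 that includes no change. Inside the gene, the peak at 94715204 to 94715854 had 38.1 in ablation and 60.0 in control (42 and 85 reads), a ratio of 0.635 (0.428 to 0.930).

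Deep in the Slc9a9 body 3 peaks within 97.2 kb were at least 2-fold higher in ablation. At 95096271 to 95096949 there were 52.6 normalized reads in ablation and 12.7 in control (58 and 18 reads), 4.14-fold higher (2.41 to 7.47). At 95193034 to 95193497 there were 28.1 in ablation and 7.06 in control, and at 95151635 to 95152240 there were 60.8 in ablation and 21.2 in control. The last of these was 2.87-fold higher (1.84 to 4.57). Among the 8106 genes with 3 or more tested peaks, 2.32% held both a 2-fold lower and a 2-fold higher peak; Slc9a9 and Ryr2 were the members that did. The summed signal of Slc9a9 had a log2 ratio of -0.21 over all 9 tested peaks and 0.21 over those that overlap the gene. The neighbour Chst2 was 1.53-fold higher (1.35 to 1.73) and Dipk2a on the other side was at -0.16.

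**Figure D2:**
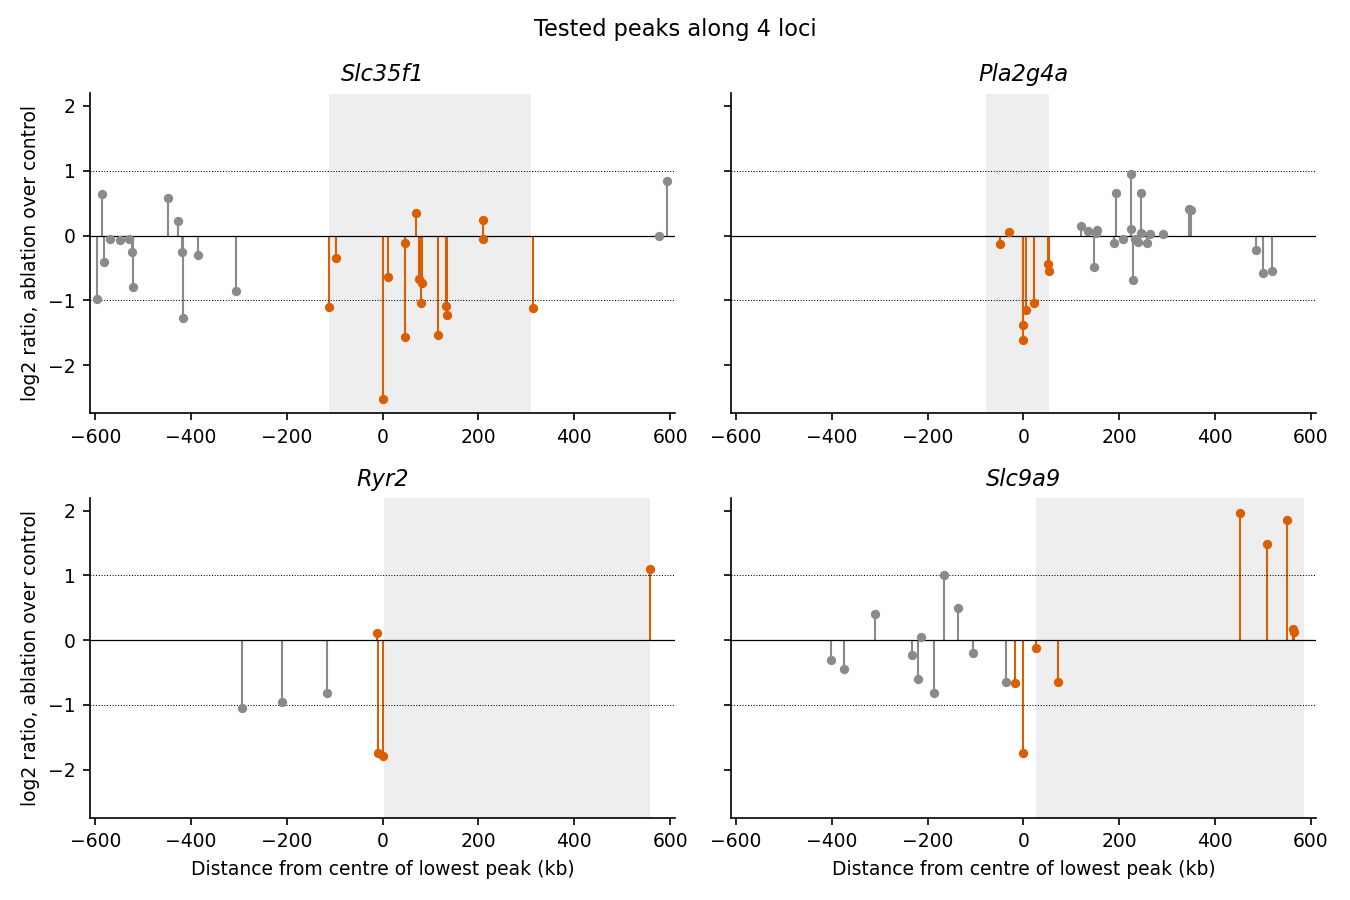
Log2 ratio of ablation to control (vertical axis) of each tested peak against its distance in kb from the centre of the lowest peak, for 4 loci. Orange marks peaks of the locus, grey other peaks, shading the gene body and dotted lines 2-fold; lower peaks run along the whole of Slc35f1, cluster in Pla2g4a, sit beyond the 3′ end of Ryr2 and lie before the start of Slc9a9, whose body holds 3 higher peaks.

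Pla2g4a, on chromosome 1 from 149829618 to 149961290 and read from the high-coordinate end, had 4 of 8 tested peaks at least 2-fold lower, all within 24.5 kb in the gene body. The lowest, at 149906723 to 149907034, had 15.4 normalized reads in ablation and 49.4 in control (17 and 70 reads), 3.20-fold lower (1.87 to 5.81). Its neighbour 1.45 kb away, at 149905103 to 149905759, had 33.6 in ablation and 88.9 in control (37 and 126 reads), a ratio of 0.377 (0.254 to 0.548). The peaks at 149912669 to 149913105 and 149929171 to 149929607 followed at log2 ratios of -1.15 and -1.04, from 12 and 24 reads in ablation and 36 and 65 reads in control.

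The peak over the Pla2g4a start, at 149960641 to 149961543, had 132 normalized reads in ablation and 192 in control, a ratio of 0.685 (0.556 to 0.841). Toward the 3′ end the peaks were level, with 59.0 in ablation and 56.5 in control at 149876482 to 149877066 and 39.9 in ablation and 43.8 in control at 149856836 to 149857167. The locus as a whole was at 0.636 (0.563 to 0.717), and at 0.667 (0.587 to 0.754) without its lowest peak. Ptgs2, the inducible cyclooxygenase that acts on the arachidonic acid released by this phospholipase, is the next gene, 139 kb away, and had 1856 normalized reads in ablation and 1847 in control over 13 peaks (ratio 0.948 to 1.06), with 0 peaks past 2-fold. The 24 neighbouring peaks of Pla2g4a had a median log2 ratio of 0.03 and none was past 2-fold in either direction. Their summed signal was at -0.04 (ratio 0.932 to 1.01).

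Mast4, on chromosome 13 from 102732486 to 103335099, had 30 tested peaks, and 2 were at least 2-fold lower. At 103102499 to 103103292 there were 59.0 normalized reads in ablation and 172 in control (65 and 244 reads), 2.92-fold lower (2.21 to 3.90). The other, at 102914488 to 102914622, was weak, with 9 reads in ablation and 28 in control. The peaks on either side of the first, 5.83 kb and 7.11 kb away, stood at log2 ratios of 0.04 and -0.24. One peak at 102842344 to 102842914, with 19.0 in ablation and 38.1 in control, lay just outside the limit at -0.96, with the pseudocount, while the nearest inside the limit, in Slc35f1, was at -1.04. The start of Mast4 had 407 in ablation and 451 in control, with a ratio of 0.799 to 1.02. With 21 of 30 peaks below 0 the locus summed to 0.852 (0.823 to 0.882), against 0.868 (0.838 to 0.899) without its lowest peak. The 90 neighbouring peaks, 5 of them at least 2-fold higher, had a median log2 ratio of 0.07 and summed to -0.01 (ratio 0.967 to 1.02).

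Ankrd44, on chromosome 1 from 54645340 to 54928983, had 23 tested peaks, of which 1 was at least 2-fold lower. At 54743113 to 54743486 there were 22.7 normalized reads in ablation and 93.1 in control (25 and 132 reads), 4.11-fold lower (2.66 to 6.58). The adjacent peaks, 13.8 kb and 4.71 kb away, stood at log2 ratios of 0.08 and -0.26. The start, at 54925666 to 54926786, had 330 in ablation and 301 in control, and its interval of 0.95 to 1.26 includes no change. The filter removed 2 further peaks that were at least 2-fold lower. One of them, at 54812995 to 54813190, had 3 reads in ablation and 29 in control, a ratio of 0.133 (0.0259 to 0.429). Over all loci the filter removed 13 peaks, of which 3 were at least 2-fold lower and 1 at least 2-fold higher. The higher one, in Mast4, had 14 reads in ablation and 5 in control. The sum of the tested peaks of Ankrd44 was 0.878 of control (0.830 to 0.928). The 53 neighbouring peaks had a median log2 ratio of -0.12 and summed to -0.11 (ratio 0.899 to 0.954). The flanking genes Pgap1 and Sf3b1 were at -0.33 and -0.10.

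Fbxo38, on chromosome 18 from 62504059 to 62548863, had only 2 peaks. The one in the gene body, at 62531537 to 62532060, had 20.9 normalized reads in ablation and 91.7 in control (23 and 130 reads), 4.40-fold lower (2.81 to 7.18). The one at the gene end, at 62548297 to 62549161, had 467 in ablation and 518 in control, a ratio of 0.902 (0.804 to 1.01). It also overlaps Spink10, so the peak belongs to both genes. The 135 neighbouring peaks had a median log2 ratio of -0.12 and 4 of them were lower. Their summed signal was at -0.18 (ratio 0.867 to 0.899).

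Syne3 and Wdfy4 each had 1 peak that was at least 2-fold lower, and other peaks on both sides of 0. In Syne3, on chromosome 12 from 104929933 to 105010587, the lowest peak at 104935373 to 104935850, near the 3′ end, had 29.0 normalized reads in ablation and 84.7 in control (32 and 120 reads), 2.92-fold lower (1.96 to 4.45). The next peak of the gene, 43.1 kb toward the start, had 75.3 in ablation and 40.2 in control, 1.87-fold higher (1.32 to 2.67). A peak at the edge of the annotated promoter window, at 104998924 to 104999586, had 298 in ablation and 228 in control, a ratio of 1.31 (1.12 to 1.53). Another strong peak, at 105008761 to 105010500 by the high-coordinate end of the gene, had 568 in ablation and 602 in control. Summed over 12 peaks, Syne3 was at 1.08 of control (1.01 to 1.15), the only one of the 10 loci above 1, and at 1.13 (1.05 to 1.20) without the lowest peak. The neighbouring gene Glrx5 was at a log2 ratio of -0.39 and Clmn at -0.03.

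Wdfy4, on chromosome 14 from 32959547 to 33193855, had 6 peaks and none over its annotated start. The lowest, at 33067572 to 33068215, had 27.2 normalized reads in ablation and 97.4 in control (30 and 138 reads), 3.58-fold lower (2.40 to 5.50). The strongest peak, at 33019160 to 33020483, had 144 in ablation and 186 in control (159 and 263 reads), a ratio of 0.777 (0.634 to 0.95). The remaining 4 lay between log2 ratios of 0.09 and 0.64, and without the lowest peak the locus was at 1.02 (0.886 to 1.17). Langerhans and dendritic cell markers, which a sort for K14 reporters selects against, had tested peaks at 9 of 10 genes, with Itgax at none, and summed to 2780 normalized reads in ablation and 2823 in control. Of their 27 peaks 1 was at least 2-fold lower and 2 higher, among them the single peak of Csf1r, with 31 reads in ablation and 19 in control. Their part in the Wdfy4 value was not tested. Flanking Wdfy4, Arhgap22 was at 0.11 and Prrxl1, from 1 peak, at 0.88.

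**Figure D3:**
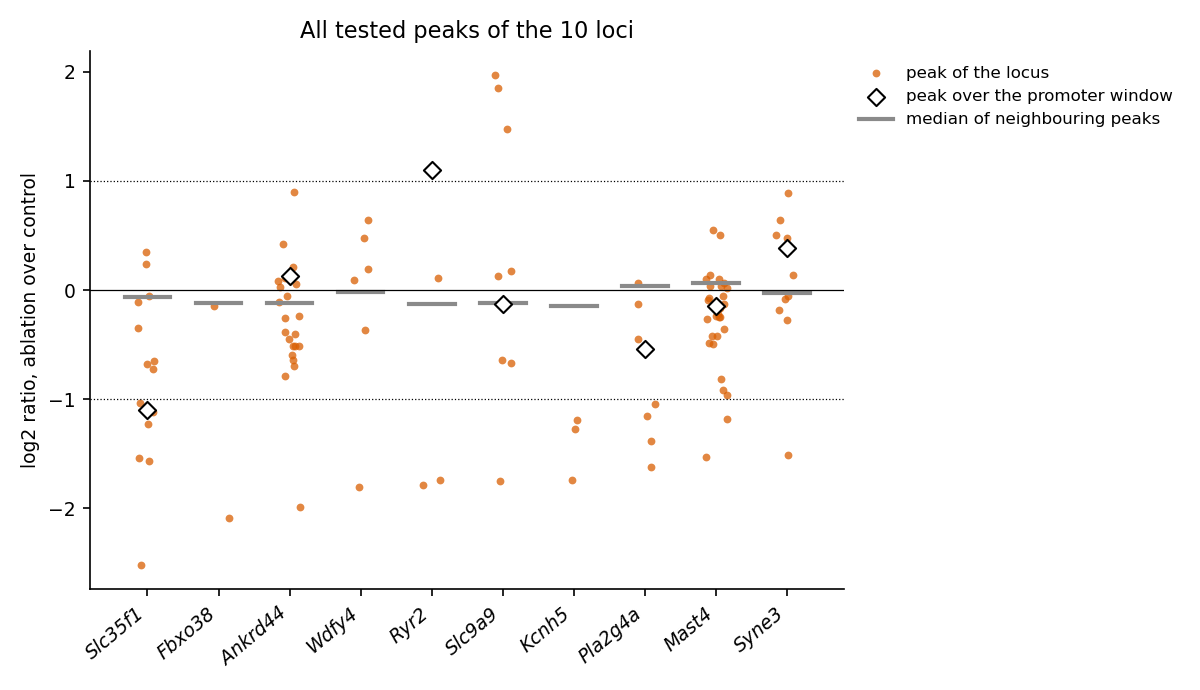
Log2 ratio of ablation to control (vertical axis) for all 113 tested peaks of the 10 loci, ordered by their lowest peak, with dotted lines at 2-fold. Diamonds are peaks over a promoter window and grey bars the median of other peaks within 1 Mb; Slc35f1 and Pla2g4a have many low peaks, Kcnh5 3 of 3, and most other loci a single low peak, and promoter windows of Fbxo38 were not used.

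Set side by side, some loci were lower at many peaks and others at 1. Of the 10 summed values, 9 had an interval wholly below 1. When the lowest peak was set aside, 6 kept such an interval, namely Slc35f1, Pla2g4a, Kcnh5, Ryr2, Ankrd44 and Mast4. The share of all genes with such an interval was not worked out, so these counts are not read as particular to the loci. Of all genes with a tested peak, 61.6% had a log2 ratio below 0. The summed neighbouring peaks also had an interval wholly below 1 around each locus except Pla2g4a (0.932 to 1.01) and Mast4 (0.967 to 1.02). For Ankrd44 and Mast4 the value without the lowest peak was a log2 ratio of -0.14 and -0.20. Their neighbouring peaks summed to -0.11 and -0.01, and the median over 16271 genes with a tested peak was -0.07. Kcnh5, at -1.55, and Ryr2, at -1.16, were past 2-fold as sums, a size that 0.418% of genes reached. Both rest on few peaks and on the peak set: Kcnh5 was at -0.60 with a window of 100 kb, and Ryr2 at -0.86 without its lowest peak and at -0.81 as the median of its peaks. Among loci with 3 or more tested peaks, at least 50% of the peaks were 2-fold lower in Slc35f1, Pla2g4a, Kcnh5 and Ryr2, as in 0.148% of such genes. These shares follow from how the loci were chosen and are read no further.

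**Figure D4:**
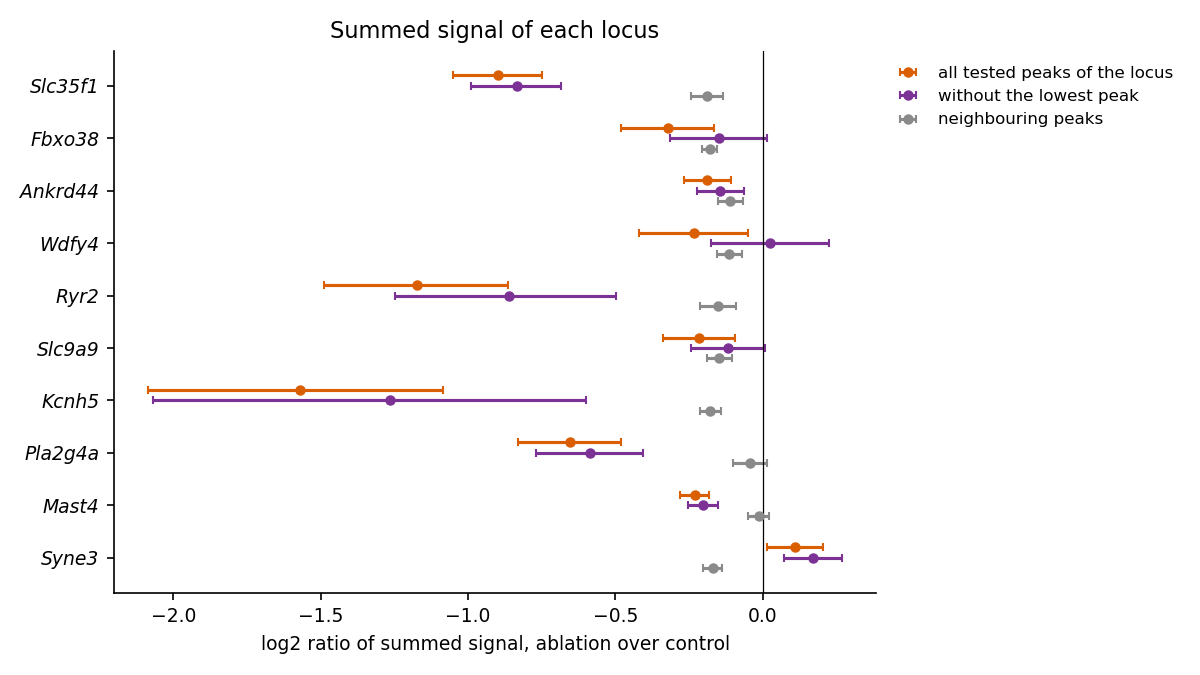
Log2 ratio of summed normalized signal, ablation over control (horizontal axis), for all tested peaks of each locus, for the locus without its lowest peak and for the other peaks within 1 Mb, with 95% counting intervals. Slc35f1, Pla2g4a, Kcnh5, Ryr2, Mast4 and Ankrd44 lie below their neighbours with and without the lowest peak, and Syne3 lies above 0. For Ankrd44 the intervals overlap those of its neighbours.

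In the neighbourhoods, 2-fold lower peaks were no more common than the 1.88% of all tested peaks. Of 625 other tested peaks within 1 Mb of the 10 genes, 11 (1.76%) were at least 2-fold lower and 17 (2.72%) at least 2-fold higher. Their median log2 ratio was -0.06 and their summed signal was at -0.14. There were 0 lower around Pla2g4a, Ankrd44, Mast4 and Syne3, and the share was highest around Ryr2, with 1 of 22. Among the nearest genes with a tested peak on either side, 20 in all and up to 5262 kb away, 13 had a log2 ratio below 0. Of all genes with a tested peak, 61.6% did. Of the 20, 0 were at least 2-fold lower, with values between -0.87 and 0.88. Spink10, among them, shares a peak with Fbxo38. At the edge of the distance rule, the furthest member peak, 48524 bp from Slc9a9, had 6 reads in ablation and 17 in control. The nearest peak outside the rule, 51708 bp from Mast4, had 506 reads in ablation and 630 in control.

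Most of the 10 genes are long. They had a median length of 282 kb, against 22.4 kb over all genes with a tested peak, and 9 of them were longer than 75% of those genes (Fbxo38, at 44.8 kb, was the exception). They held a median of 8.5 tested peaks, from 2 at Fbxo38 to 30 at Mast4, against 2 over all genes. Of genes with 3 or more tested peaks 10.6% held at least 1 peak that was 2-fold lower, and of all genes with a tested peak 6.21% did. The part of gene length and peak number in these values was not tested. Among genes with 3 or more tested peaks, at least 2 lower peaks were found in 1.36% of genes (Mast4 and Ryr2 held 2), at least 3 in 0.222% (Kcnh5 held 3) and at least 4 in 0.0493% (Pla2g4a held 4 and Slc35f1 8). At least 3 higher peaks were found in 1.9%, Slc9a9 among them. Lower peaks had a median length of 479 bp, against 570 bp for all tested peaks of these loci, and a median signal of 50.4 normalized reads against 51.0. Of the 24, 19 lay inside a gene body, 5 outside and 1 over a promoter window.

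By number of lower peaks, Slc35f1 ranked first and Pla2g4a tied for second among 4647 genes with 5 or more tested peaks. The other genes at the top of this count, with ties ordered by the lowest summed ratio, were Pdzd2, with 4 of 40 peaks lower, Mtus1 with 4 of 25, Kcnk2 with 3 of 21, Synpo2 with 3 of 14 and Tuba1a with 3 of 10. Their sums were less far from control than that of Slc35f1, between 0.714 (0.672 to 0.760) for Kcnk2, a background potassium channel, and 0.871 (0.821 to 0.925) for Mtus1.

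Genes related to the 10 were listed by family or role, while the 10 were chosen for low peaks. Their shares of lower peaks are therefore not matched. As sums, some related genes lay lower than their member, such as Fbxo11 beside Fbxo38 and Ppp6r1 beside Ankrd44. Others, such as Cul1 and Ppp6r2 in the same lists, lay higher. Of 119 such genes in 10 lists, 116 had a tested peak, 65 of these had a log2 ratio below 0 (61.6% of all genes did), and 0 were at least 2-fold lower or higher as sums. Of their 702 peaks 10 (1.42%) were at least 2-fold lower and 26 at least 2-fold higher, near the 1.88% and 4.48% of all tested peaks. List medians ranged from -0.12 to 0.17 on the log2 scale, around the -0.07 of all genes.

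Other phospholipase and eicosanoid genes, 25 in all, had a median of 0.04 and 11 below 0. Pla2g4c, a paralog of Pla2g4a, was lowest at 0.716 (0.642 to 0.798), with 1 of 4 peaks lower, and Ptger2, a prostaglandin E receptor, highest at 1.80 (1.51 to 2.13), with 297 normalized reads in ablation and 165 in control. Sodium/proton exchangers and their partners had a median of 0.16 with 3 of 11 below 0, from Slc9b1 at -0.34 to Slc9a2 at 0.52. Ether-a-go-go channels had a median of 0.17, from Kcnh6 at -0.15 to Kcnh7 at 0.85, the last from 1 peak with 43 reads in ablation and 30 in control. Calcium release genes had a median of -0.04, with Stim1, the store calcium sensor, lowest at -0.20 and the calcium pump Atp2a3 highest at 0.41. Ryr3, a paralog of Ryr2, had 2 peaks, 1 at least 2-fold lower and 1 at least 2-fold higher, and summed to a log2 ratio of -0.01. SLC35 genes had a median of 0.03, from Slc35a2 at -0.34 to Slc35f6 at 0.44.

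Nuclear envelope genes, the partners of Syne3, had a median of -0.10, with the inner membrane protein Sun2 lowest at 0.765 (0.696 to 0.841) and Banf1 highest at 0.23; 0 of their 93 peaks were past 2-fold. Ubiquitin ligase genes related to Fbxo38 had a median of -0.11 and 11 of 12 lay below 0, from Fbxo11 at -0.41 to Cul1 at 0.00. Protein phosphatase 6 genes, the partners of Ankrd44, had a median of -0.12, from the regulatory subunit Ppp6r1 at -0.36 to Ppp6r2 at 0.12. BEACH genes had a median of -0.03, from Wdfy2 at -0.20 to Nbea at 0.73, with 3 of 5 Nbea peaks at least 2-fold higher. MAST kinases had a median of -0.05, from Mast3 at -0.09 to Mastl at 0.18. Signs of these medians depended on the scaling: all 10 lay below 0 after division by the table total, calcium release, MAST and BEACH genes lay above 0 after division by the nuclear total, and after a loess correction nuclear envelope genes did too while SLC35 genes lay at -0.01.

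**Figure D5:**
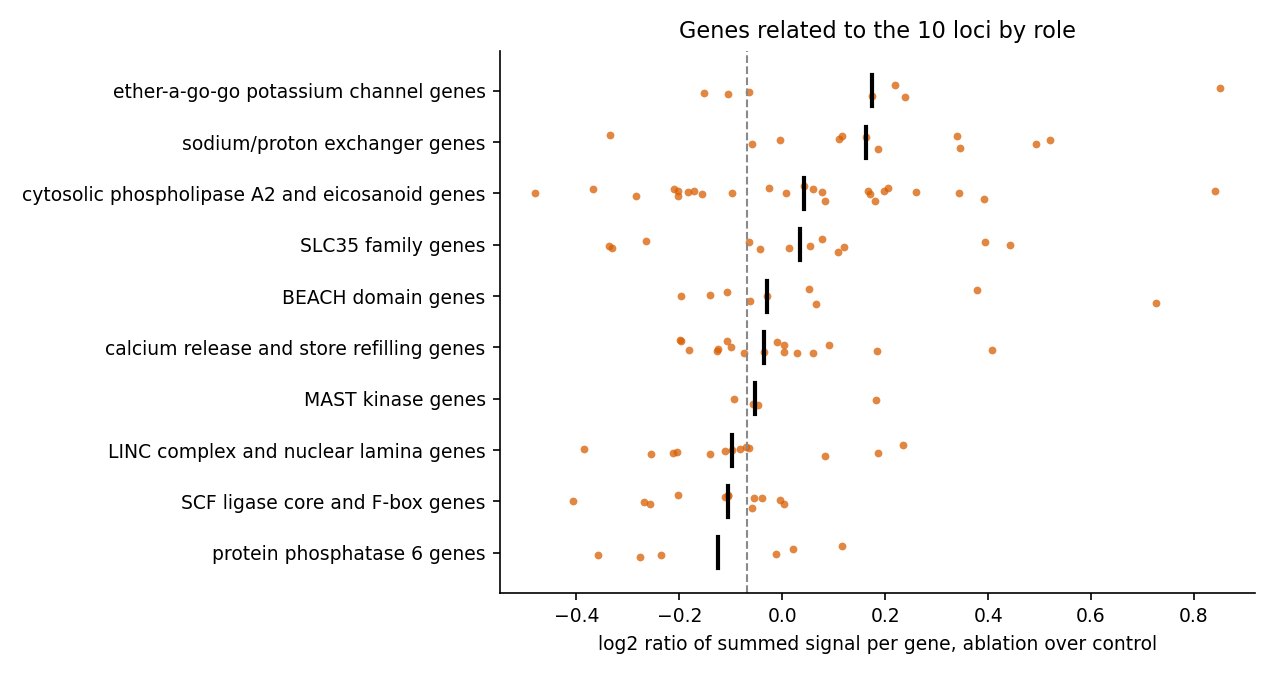
Log2 ratio of summed signal, ablation over control (horizontal axis), for the 116 related genes in 10 lists (vertical axis), 1 point per gene, with the list median in black and the median over all genes as a dashed line. List medians lie between -0.12 and 0.17 and no gene reaches 2-fold.

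Markers of cell types outside the sort differed in both directions. Neuronal markers, of the tissue in which Kcnh5 is best known, had tested peaks at 7 of 8 genes and summed to 4050 normalized reads in ablation and 4420 in control. Of their 56 peaks 6 were at least 2-fold lower and 1 at least 2-fold higher, where 1.88% and 4.48% of all tested peaks were, with 3 of the 6 in Map2 and 2 in Syt1. Of the lists' genes Gad1, Cdh5, Emcn, Col1a2, Col3a1, Lum, Tyr, Kit, Cd3d, Cd3g and Il2rb had no tested peak. Endothelial markers summed to 4384 in ablation and 4263 in control, with 1 of 49 peaks past 2-fold lower and 3 past 2-fold higher. Tie1 was the highest, 2.36-fold higher (1.89 to 2.95), and Tek the lowest, at 0.646 (0.569 to 0.733). Of the 6 endothelial genes with a tested peak, 2 had a log2 ratio below 0. Fibroblast markers summed to 638 in ablation and 593 in control, with 0 of 11 peaks lower and 2 higher, the single peaks of Pdgfrb (25 reads in ablation and 14 in control) and Twist2 (25 and 12). T cell markers summed to 3324 in ablation and 3682 in control, and melanocyte markers to 3215 in ablation and 3522 in control, with 0 of 19 and 1 of 23 peaks lower and 0 higher in both. Their part in the values of the 10 loci was not tested.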

How the data were processed

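The submitters' processing notes name build mm10 and, without roles, HTSeq, MACS2 2.1.0.20151222, Picard, Bowtie2 2.3.4.2 and Trimmomatic. What the authors deposited is one normalized signal value for each peak in each library; neither the factors nor the choice of peaks is stated. Of these values 100% were whole reads within 0.1 read, at 0.907 normalized reads per read in ablation and 0.706 in control. Column names gave the samples: that of control has a 2 its title lacks, and the Exp column was read as ablation, the remaining sample. Of 116411 rows, repeats were merged to 84594 peaks, and 3 mitochondrial peaks were left out. Whether starts count from 0 or 1 is not stated. Unused columns numbered 0.

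Peaks entered the comparison, and are called tested, at a mean of 13.96 normalized reads or more (the 10th percentile); the log2 ratio used a pseudocount of 1, and 2-fold was the limit, without a test. A locus value is that log2 ratio for the sum of its peaks. Ratios carry exact 95% Clopper-Pearson intervals from the reads; single signals have exact Poisson intervals. A count of 0 would allow 3 reads, 2.72 normalized reads in ablation and 2.12 in control. Reads that are PCR copies are not independent. Gene positions are those of RefSeq on GRCm38.p6; exons were not used here. A promoter window runs from 250 bases before to 50 after a RefSeq start. A peak at 2 genes counts for each. The steps were tested on simulated reads.

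The members, lists and naming rule were chosen with earlier results of these data known. Named were all tested peaks past 2-fold, the lowest and the gene-end peaks of each locus and the extremes of each related list. The highest peaks of Ankrd44 and Mast4, at log2 ratios of 0.90 and 0.55, and some of the nearest genes were not described above. Alternatives covered the pseudocount, filter, scaling, fold limit, assignment and reach. The software was matplotlib 3.10.9, scipy 1.17.1, statsmodels 0.14.6, pandas 2.3.3 and numpy 2.4.6 under Python 3.11.15.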

Additional observations from a re-analysis of the deposited data

Results flagged for a closer look

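Mitochondrial reads, outside the comparisons above, made up 31.2% of the ablation library's reads in peaks, against 7.31% of those of the control library. The ablation value was listed for lying above control in data that no comparison used.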

How the results depend on the processing

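No paired analysis was possible because each group has 1 library. As reported, 24 member peaks were at least 2-fold lower (14 with each lowest peak set aside) and 4 higher, against 11 neighbouring peaks and 1432 of all tested peaks lower. With a pseudocount of 5, 7 member peaks beside the lowest and 864 of all peaks were lower. Without a low-signal filter 2519 of all peaks were lower. With the filter at the 25th percentile these counts were 9 members beside the lowest, 7 neighbours and 746 of all, with 2 members higher. At 1.5-fold they were 26, 52 and 5691, with 8 members higher. At 3-fold they were 1, 2 and 196, with 9 members lower in all and 2 higher. A neighbourhood of 500 kb held 5 lower peaks. After a loess correction 21 neighbours and 2245 of all peaks were lower.

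Division by the table total moved all tested peaks by -0.34 at the median. It gave 22, 39 and 4289 lower peaks, medians of -0.58 for member and -0.40 for neighbouring peaks, -0.23 for Syne3, and list medians of -0.30 (eicosanoid), -0.44 (nuclear envelope), -0.38 (calcium release), -0.18 (sodium/proton exchangers), -0.31 (SLC35), -0.15 (ether-a-go-go), -0.39 (MAST), -0.46 (phosphatase 6), -0.37 (BEACH) and -0.45 (ubiquitin ligase). Division by the nuclear total and centring on strong gene-end peaks moved the neighbour median to 0.028 and 0.036, the median of the 10 locus values from -0.28 to -0.19 and -0.18, calcium release to 0.055 and 0.061, SLC35 to 0.12 and 0.13, and ubiquitin ligase genes to -0.015 and -0.0094 (loess -0.0094). Without each lowest peak the median of the locus values was -0.18 and Wdfy4 stood at 0.025. With the median of its peaks as the value, Wdfy4 was at 0.14 and Slc9a9 at 0.13, and with overlapping peaks alone Slc9a9 was at 0.21 and Ryr2 at 1.10. Slc35f1, Pla2g4a, Kcnh5, Fbxo38, Ankrd44 and Mast4 stayed below 0 under all 12 alternatives run for locus values. Except where the fold limit, peak set or shift itself sets the value, the cause was not tested.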
